A study of Homo sapiens with 4 samples.

Results

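The genes described here are plasma membrane carriers for lactate, pyruvate and large neutral amino acids, together with the chaperone and the heavy chain that some of them need. The list holds 10 genes, and the highest-mean probe set whose platform annotation names the gene was read for each. A row was found for 8 of them, SLC16A7, SLC16A4, BSG, SLC43A1, SLC43A2, SLC7A5, SLC3A2 and SLC1A5, out of 18417 genes with a row. SLC16A1 and SLC16A3, the lactate carriers MCT1 and MCT4, had no row naming them in the annotation used and were not analysed here. All 8 passed the signal minimum (a mean log2 signal above 5.64), which kept 14547 genes. The members were chosen by function around SLC16A7 and SLC43A1. These were taken to have been selected on their low round 2 minus round 1 differences on these same arrays. Differences between rounds are therefore given as a description with no test. The comparison used for the choice was not stated, so the site results may not be free of it either.

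The RNA came from SNU-16, a human gastric carcinoma line, after growth in BALB/c nude mice, which lack T cells but keep other host cells. There were 4 arrays. The ovary lines were tumour cells recovered from ovarian metastases of stomach-wall implants in round 2 (1 array) and round 1 (1 array), and the stomach lines were cells recovered from the stomach-wall tumours of round 2 (1 array) and round 1 (1 array). All 4 therefore shared the parental line, the mouse strain, the implantation site and culture in the same serum-containing RPMI-1640 medium. Each round 2 line was grown from the round 1 line of the same site, so a site is 1 lineage at 2 passages. The title and tissue labels were followed, but the free-text descriptions of the round 2 samples go against them: the stomach sample is said there to be cultured from ovary, and the ovary sample to lie in the stomach. An exchange of those arrays would alter each comparison of sites and each within-lineage difference, and leave the mean round difference as it is. Nothing in the labels names separate animals, so the spread between arrays may be partly technical.

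Levels are log2 signals, with array medians between 6.80 and 6.84 over all rows, and are compared only within a gene. The 6 epithelial markers (EPCAM, CDH1, KRT8, KRT18, KRT19 and FGFR2) lay between 11.5 and 12.9 on every array, whereas markers of other cells were mixed. Means above the signal minimum were found for 3 of 6 leukocyte markers (TYROBP highest, between 7.38 and 7.48), 4 of 6 fibroblast markers (COL1A1 highest, between 7.54 and 7.62), 2 of 4 endothelial markers and 4 of 5 ovarian steroidogenic and follicle markers (AMH highest, between 7.84 and 8.03). PTPRC (leukocytes), DCN (fibroblasts), PECAM1 (endothelium) and CYP19A1 (ovarian granulosa cells) lay under it on every array. The RNA came from cultured cells of a human line, any host cells would be murine, and the probe sets are annotated to human genes. These signals therefore do not show that cells of those types were present. If they were, fewer cells of a type could not be told apart from less RNA per cell.

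Lactate and pyruvate cross the plasma membrane with a proton through carriers of the SLC16 family, in either direction along the gradient. Several of them reach the surface only with an immunoglobulin-like chaperone, basigin or embigin. Leucine and other large neutral amino acids enter either through SLC43 uniporters or through the SLC7A5–SLC3A2 exchanger, which gives out an intracellular amino acid such as glutamine for each one taken in. SLC1A5 brings glutamine into the cell and so feeds that exchange, and intracellular leucine is read by the mTORC1 pathway.

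The 250 bases before the RefSeq transcription start (GRCh38.p14, with the start site itself left out) are shown for the members that differed most between arrays. Capitals mark matches on either strand to CACGTG, an E-box of the kind bound by MYC, to ACGTG and GCGTG, the core of the hypoxia response element, and to TGATGNAA, the core of the amino acid response element. Each CACGTG also contains ACGTG on both strands.
SLC16A7, chr12:59595779-59596028, plus strand: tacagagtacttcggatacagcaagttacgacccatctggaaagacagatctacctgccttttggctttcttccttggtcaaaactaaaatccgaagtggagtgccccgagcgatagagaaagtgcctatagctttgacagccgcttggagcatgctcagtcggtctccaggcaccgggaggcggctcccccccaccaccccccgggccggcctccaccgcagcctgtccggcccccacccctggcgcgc
SLC16A4, chr1:110391027-110391276, minus strand: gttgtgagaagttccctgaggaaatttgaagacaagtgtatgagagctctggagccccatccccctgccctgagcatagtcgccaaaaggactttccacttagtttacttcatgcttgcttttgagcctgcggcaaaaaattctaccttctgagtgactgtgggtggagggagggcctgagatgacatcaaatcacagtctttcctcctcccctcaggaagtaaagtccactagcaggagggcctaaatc
SLC43A1, chr11:57515703-57515952, minus strand: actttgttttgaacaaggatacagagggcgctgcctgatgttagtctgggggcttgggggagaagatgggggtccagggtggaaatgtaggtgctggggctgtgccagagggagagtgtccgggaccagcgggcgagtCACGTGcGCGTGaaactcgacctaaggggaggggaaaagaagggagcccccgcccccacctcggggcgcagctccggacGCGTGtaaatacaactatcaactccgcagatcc
SLC7A5, chr16:87869508-87869757, minus strand: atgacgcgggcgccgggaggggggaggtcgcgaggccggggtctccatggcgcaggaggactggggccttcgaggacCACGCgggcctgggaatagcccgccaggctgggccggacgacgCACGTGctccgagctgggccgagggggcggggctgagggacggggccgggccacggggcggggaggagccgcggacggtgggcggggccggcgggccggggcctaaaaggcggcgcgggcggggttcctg
The SLC43A1 and SLC7A5 windows shown each held 1 CACGTG, which 6.32% of 34943 windows of this length held; of the windows not shown, 1 of BSG and 1 of SLC1A5 held it too. ACGTG was present in 18.5% of windows. The other hypoxia core, GCGTG, was present in 32.2%, and the amino acid response core in 3.15%. The SLC16A7 and SLC16A4 windows held none of these letters, and the windows of the other starts listed for SLC16A7 and SLC43A1 held none either. These are matches of letters only.

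Between rounds, SLC16A7 and SLC43A1 were lower and SLC16A4 was higher in round 2, in the ovary lineage and in the stomach lineage alike, by 1.89-fold to 2.23-fold on average. The other 5 genes differed by at most 1.18-fold on average over both lineages. SLC16A7 encodes MCT2, a lactate and pyruvate carrier of high affinity. It stood at 7.49 in ovary and 7.21 in stomach lines of round 2, against 8.54 in ovary and 8.48 in stomach lines of round 1. The rounds did not overlap, and the round 1 lines lay within 0.063 of each other. The round 2 minus round 1 difference was -1.05 in the ovary lineage and -1.27 in the stomach lineage, a mean of -1.16 ± 0.15 (SD, n = 2 lineages) that ranked 3 from the lowest of 14547 genes.

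SLC16A4 encodes MCT5, a family member whose substrates are poorly defined. It stood at 8.53 in ovary and 8.71 in stomach lines of round 2, against 7.62 in ovary and 7.79 in stomach lines of round 1. Here the round 2 lines were the high ones, and the stomach line was slightly above the ovary line in each round. The difference was 0.91 in the ovary lineage and 0.92 in the stomach lineage (mean 0.91 ± 0.0060, SD, n = 2), rank 40 from the highest.

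SLC43A1 encodes LAT3, a uniporter of branched-chain amino acids, phenylalanine and methionine. It stood at 8.36 in ovary and 8.09 in stomach lines of round 2, against 9.35 in ovary and 9.09 in stomach lines of round 1. Both round 2 lines were lower than both round 1 lines by nearly the same step, -0.985 in the ovary lineage and -0.996 in the stomach lineage (mean -0.99 ± 0.0081, SD, n = 2), rank 11 from the lowest. SLC43A2, which encodes the related uniporter LAT4, did not share that step. It stood at 7.53 in ovary and 7.27 in stomach lines of round 2, against 7.57 in ovary and 7.58 in stomach lines of round 1. Its difference of -0.32 in the stomach lineage and -0.038 in the ovary lineage came from the round 2 stomach array being the lowest of the 4.

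**Figure D1:**
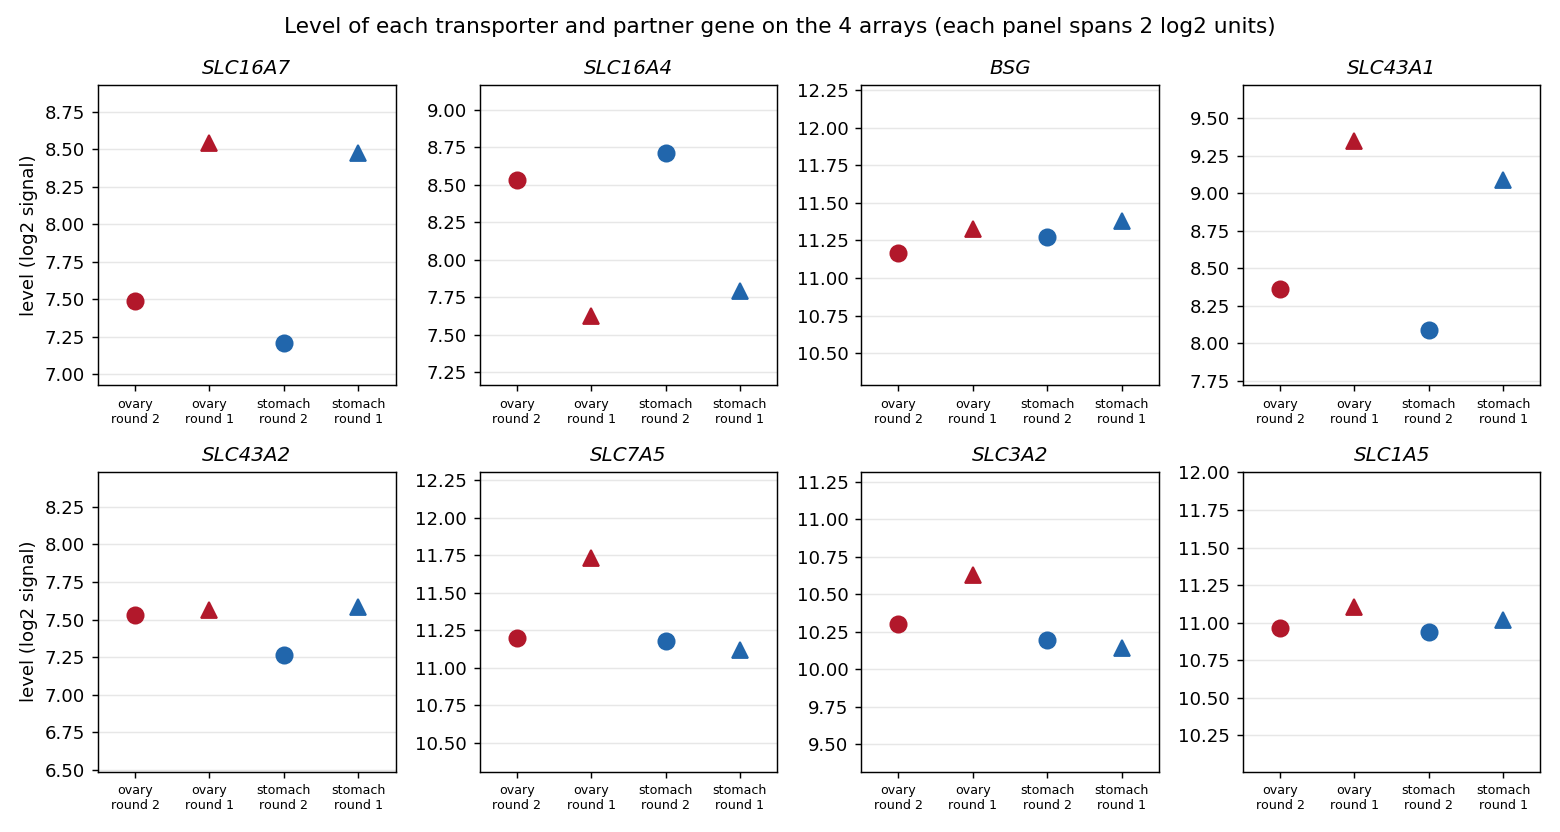
Level (log2 signal, y axis) of each of the 8 measured genes on the 4 arrays (x axis), with ovary lines in red, stomach lines in blue, round 2 as circles and round 1 as triangles; each panel spans 2 log2 units. SLC16A7 and SLC43A1 are lower and SLC16A4 higher on both round 2 arrays, while SLC7A5 and SLC3A2 stand out on the round 1 ovary array.

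BSG encodes basigin, the chaperone of several SLC16 carriers. It stood at 11.16 in ovary and 11.27 in stomach lines of round 2, against 11.33 in ovary and 11.38 in stomach lines of round 1. Round 2 was lower in each lineage, by -0.16 in ovary and -0.11 in stomach. The 4 arrays spanned 0.22, a range wider than that of 39.7% of tested genes. EMB, which encodes embigin, the chaperone known to serve MCT2, was under the signal minimum, with levels between 3.71 and 4.07 on the 4 arrays.

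SLC1A5 encodes ASCT2, a sodium-dependent exchanger of glutamine and other small neutral amino acids. It was the steadiest gene of the list, at 10.96 in ovary and 10.94 in stomach lines of round 2, against 11.10 in ovary and 11.02 in stomach lines of round 1. Its range of 0.17 was wider than that of 26.4% of tested genes. A further SLC1A5 probe set (8029854) with weaker signal gave 6.81 in ovary and 6.83 in stomach lines of round 2, against 7.03 in ovary and 6.92 in stomach lines of round 1. Both probe sets were thus slightly lower on the round 2 arrays.

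Both arrays of round 2 lay below both of round 1 for 5 of the 8 genes (SLC16A7, SLC43A1, BSG, SLC43A2 and SLC1A5), which was so for 26.8% of all tested genes, and above them for 1 (SLC16A4), which was so for 22.2%. Round 2 lay 1.5-fold or more from round 1, in 1 direction in each lineage, for SLC16A7 and SLC43A1 (lower in round 2, as in 0.131% of tested genes) and for SLC16A4 (higher, as in 0.406%). These counts are fixed in part by how the list was made. Across all genes, limma called 0% between rounds (0 genes at an adjusted p under 0.05, and 2178 at an unadjusted p under 0.05). Some stromal markers were also slightly lower in round 2 as a mean of both lineages, where the median difference over all tested genes was -0.019. Of 6 fibroblast genes 5 were lower, with summed log2 levels of 35.3 in both lines of round 2 and 35.6 to 36.2 in round 1. In the ovary lineage the fibroblast difference came from PDGFRB, at 5.65 in round 2 and 6.17 in round 1. LUM, under the signal minimum, went the other way there, at 5.61 in round 2 and 5.25 in round 1. Of 4 endothelial genes 3 were lower, with sums of 21.7 in both lines of round 2 and 22.1 to 22.2 in round 1. Most of the endothelial difference came from TEK, which was under the signal minimum. Of 6 leukocyte genes 4 were lower, with sums of 33.6 in ovary and 33.9 in stomach lines of round 2, against 33.5 in ovary and 34.0 in stomach lines of round 1. As a mean of both lineages all 6 epithelial markers were higher in round 2, although KRT19 and FGFR2 were marginally lower in the stomach lineage. The summed log2 levels were 73.3 in ovary and 73.5 in stomach lines of round 2, against 71.9 in ovary and 73.2 in stomach lines of round 1. The part of these markers in the round differences was not tested.

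**Figure D2:**
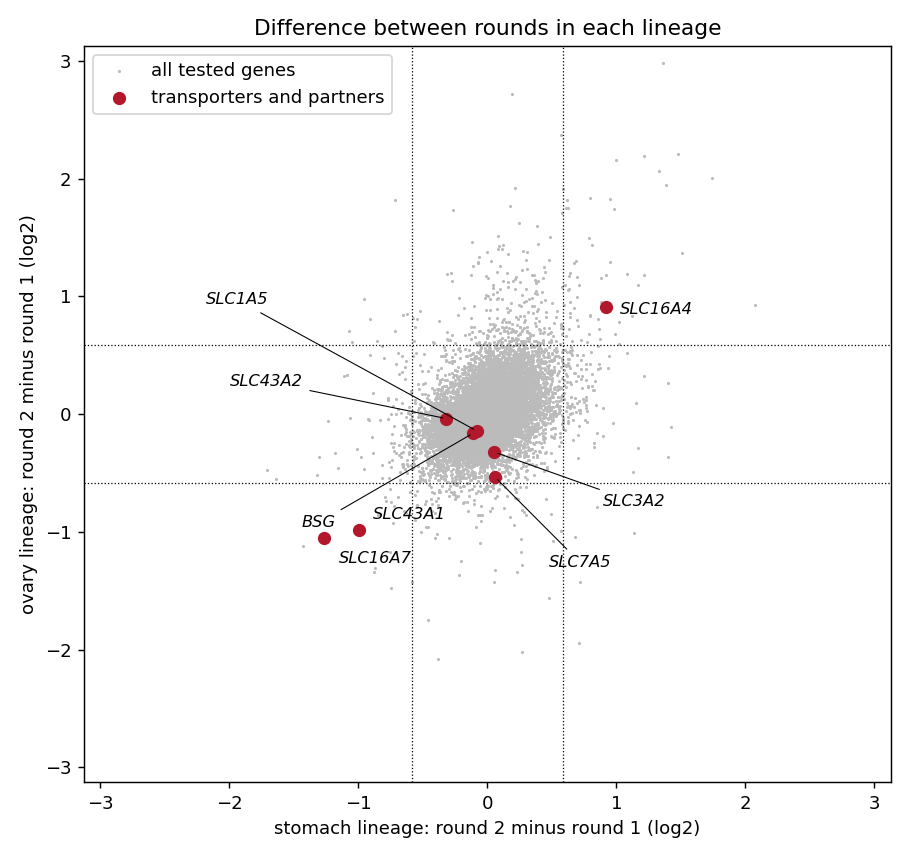
Round 2 minus round 1 difference (log2) in the stomach lineage (x axis) and in the ovary lineage (y axis) for all 14547 tested genes (grey) and the 8 measured genes (red); dotted lines mark 1.5-fold. SLC16A7 and SLC43A1 lie beyond the lines at the lower left, SLC16A4 at the upper right, and the other 5 genes inside the lines.

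The likeness of the SLC16A7 and SLC43A1 profiles was measured as the Euclidean distance between log2 values centred on each gene's mean over the 4 arrays. SLC43A1 was the nearest of all tested genes to SLC16A7 (distance 0.22), followed by FAM221A (0.33) and GPR63 (0.42). For SLC43A1 the nearest were FAM221A (0.18), SLC16A7 (0.22) and HIP1 (0.25). FAM221A stood at 5.61 in ovary and 5.47 in stomach lines of round 2, against 6.46 in ovary and 6.31 in stomach lines of round 1, so its round 2 levels lay under the signal minimum. These distances rest on 4 arrays and mainly restate a step between rounds. SLC16A7 and SLC43A1 were both taken to have been selected on that step, so their closeness is no separate result.

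Between sites, the genes of the SLC7A5–SLC3A2 exchanger were the members furthest apart, both higher in ovary lines, and in each case mostly on the round 1 array. No member passed the test of ovary against stomach, with or without the round in the fit. SLC7A5 encodes LAT1, the light chain that forms the transport path. It stood at 11.20 in round 2 and 11.73 in round 1 of the ovary lines, against 11.18 in round 2 and 11.12 in round 1 of the stomach lines. The ovary arrays were both above the stomach arrays, but the gap was 0.023 in round 2 and 0.62 in round 1. The fitted difference was 0.32 ± 0.20 (SE), a 1.25-fold higher level in ovary, and without the round 1 ovary array it was 0.052.

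SLC3A2 encodes the heavy chain CD98hc, which carries SLC7A5 to the surface. It followed the same order, with 10.30 in round 2 and 10.62 in round 1 of the ovary lines, against 10.20 in round 2 and 10.14 in round 1 of the stomach lines. Its ovary minus stomach difference was 0.11 in round 2 and 0.48 in round 1, with a fitted value of 0.30 ± 0.14 (SE, 1.23-fold) that was 0.13 without the round 1 ovary array. For both subunits the round 1 ovary array was thus the high one and the other 3 arrays lay close together. That array also had the lowest summed level of the 6 epithelial markers, and the part of this in the difference was not tested.

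SLC43A1 had the most even difference between sites, 0.27 in round 2 and 0.26 in round 1. Its levels of 8.86 ± 0.70 in ovary and 8.59 ± 0.70 in stomach lines (SD, n = 2 each) overlapped because the step between rounds was larger. With the round as a replicate block, its difference was 0.27 ± 0.086 (SE, limma unadjusted p = 0.0273, adjusted p = 0.77). SLC16A4 was the member most evenly lower in ovary, by -0.18 in round 2 and -0.17 in round 1. Its levels were 8.08 ± 0.64 in ovary and 8.25 ± 0.65 in stomach lines (SD, n = 2 each).

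For SLC16A7 the difference was 0.28 in round 2 and 0.063 in round 1. BSG was lower in ovary by -0.11 in round 2 and -0.057 in round 1, and SLC1A5 higher by 0.027 in round 2 and 0.087 in round 1. SLC43A2 was the gene whose direction differed, with 0.26 in round 2 and -0.018 in round 1. These 4 fitted differences ran from -0.083 ± 0.11 for BSG to 0.17 ± 0.55 (SE) for SLC16A7.

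Over the 8 genes limma gave an adjusted p of 1 each for ovary minus stomach (smallest unadjusted p 0.0882, for SLC3A2), and 0% of 14547 genes were called, with 378 at an unadjusted p under 0.05. Blocking on the round also gave 0%, with 916 genes at an unadjusted p under 0.05. The fit without the block left the round difference in its residual. Its SE was 0.55 for SLC16A7, 0.47 for SLC43A1 and 0.43 for SLC16A4, against 0.098, 0.086 and 0.086 with the block. The unblocked test could therefore hardly call these genes, whose round differences were large. Both ovary arrays lay above both stomach arrays for 2 of the 8 members, SLC7A5 and SLC3A2, against 13.4% of all tested genes, and below them for 0 members, against 11.2%. No member differed between sites by 1.5-fold or more with equal sign in both rounds, as did 0.0894% of genes higher and 0.0412% lower in ovary.

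**Figure D3:**
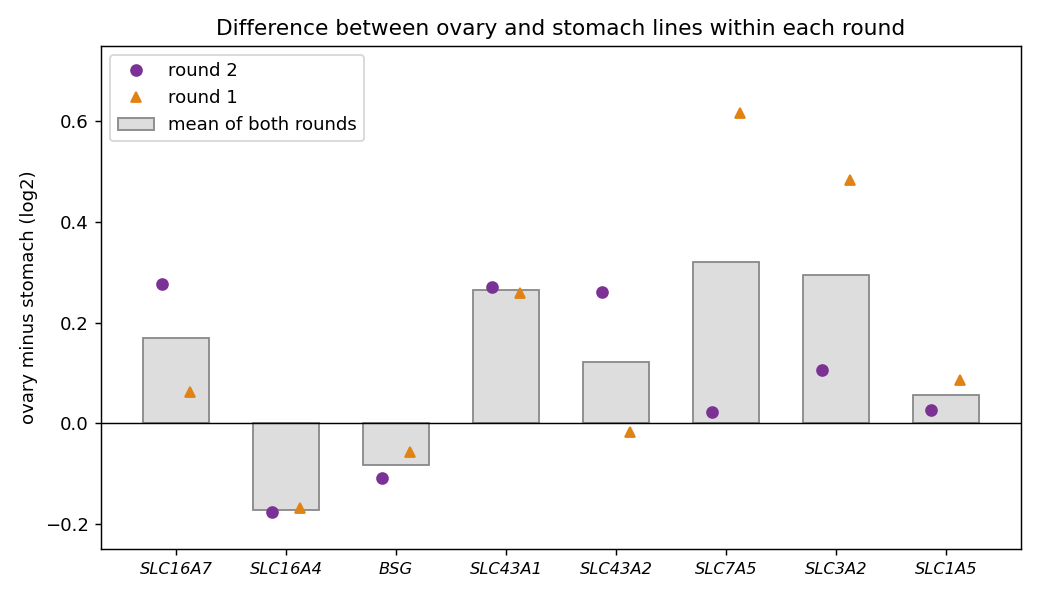
Ovary minus stomach difference (log2, y axis) of the 8 measured genes (x axis) in round 2 (circles) and round 1 (triangles), with the mean of both rounds as a grey bar. The round 1 differences of SLC7A5 (0.62) and SLC3A2 (0.48) are the largest, and SLC43A1 and SLC16A4 have nearly equal differences in both rounds.

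The round difference of the exchanger genes was unequal in the lineages. For SLC7A5 it was -0.53 in the ovary lineage and 0.059 in the stomach lineage, and for SLC3A2 -0.32 in the ovary lineage and 0.054 in the stomach lineage. The interaction, the round difference of the ovary lineage minus that of the stomach lineage, was -0.59 ± 0.41 (SE) for SLC7A5 and -0.38 ± 0.35 for SLC3A2. It was -0.0084 for SLC16A4, 0.011 for SLC43A1 and 0.21 for SLC16A7, with limma adjusted p = 1 for all 8 members. Of all genes 0% were called for the interaction, and 194 had an unadjusted p under 0.05. The mean round difference stayed in the residual of this fit. Its SE was 0.89 for SLC16A4, 0.97 for SLC43A1 and 1.11 for SLC16A7, so it could hardly call these genes.

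Genes around the lactate carriers gave small differences. Of 10 other SLC16 genes 4 were tested, and limma called 0 between sites and 0 between rounds. At an unadjusted p under 0.05 limma gave 0 and 1, where 378 and 2178 of 14547 genes were. The median difference of the 4 genes was 0.033 for ovary minus stomach and -0.0100 for round 2 minus round 1. Over all tested genes the medians were 0.0016 and -0.019. The members picked as furthest apart were SLC16A9, a carnitine carrier, at 7.50 in both lines of round 2, against 6.89 in ovary and 7.22 in stomach lines of round 1, and SLC16A10, an aromatic amino acid carrier, at 6.12 in ovary and 6.05 in stomach lines of round 2, against 6.63 in ovary and 6.23 in stomach lines of round 1. SLC16A9 thus stood with SLC16A4 on the side higher in round 2, and SLC16A10 with SLC16A7 on the lower side.

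Of 15 genes of lactate and pyruvate handling 12 were tested and 0 were called by limma in either comparison. At an unadjusted p under 0.05 limma gave 0 between sites and 2 between rounds, where 378 and 2178 of 14547 genes were. The medians of the 12 genes were 0.025 for ovary minus stomach and -0.029 for round 2 minus round 1. LDHA, the lactate dehydrogenase subunit favouring lactate formation, stood at 12.49 in ovary and 12.64 in stomach lines of round 2, against 12.87 in ovary and 12.64 in stomach lines of round 1. LDHB, the subunit favouring pyruvate formation, stood at 11.55 in ovary and 11.57 in stomach lines of round 2, against 12.07 in ovary and 11.78 in stomach lines of round 1. The round 1 ovary array was the highest for both, as it was for SLC7A5 and SLC3A2, and also for SLC16A7, SLC43A1 and SLC1A5. Another array was the highest for BSG, SLC43A2 and SLC16A4, and for MPC1, MPC2 and PDP1 below. The mitochondrial pyruvate carrier subunits MPC1 and MPC2 were slightly lower in ovary lines, by -0.19 ± 0.15 and -0.22 ± 0.12 (SE). PDP1, the phosphatase that activates pyruvate dehydrogenase, was picked for its size and stood at 8.75 in ovary and 8.32 in stomach lines of round 2, against 8.05 in ovary and 8.30 in stomach lines of round 1.

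Among 15 tested of 21 other amino acid transporters, limma called 0 in either comparison (3 in each at an unadjusted p under 0.05, where 378 of 14547 genes were between sites and 2178 between rounds). Both ovary arrays were above both stomach arrays for 7 and below for 1, where 13.4% and 11.2% of all tested genes were. This list too was drawn up with earlier results of these data known. The median difference was 0.056 for ovary minus stomach and 0.024 for round 2 minus round 1. SLC7A11, the cystine/glutamate exchanger that also pairs with SLC3A2, stood at 11.64 in round 2 and 11.70 in round 1 of the ovary lines, against 11.25 in round 2 and 11.13 in round 1 of the stomach lines. Its ovary minus stomach difference was 0.39 in round 2 and 0.57 in round 1, where that of SLC3A2 was 0.11 and 0.48. SLC7A8, which encodes LAT2, another partner of SLC3A2, stood at 8.15 in round 2 and 7.74 in round 1 of the ovary lines, against 7.20 in round 2 and 7.72 in round 1 of the stomach lines. For SLC7A8 the gap was in round 2, where the ovary array was the highest of the 4 and the stomach array the lowest. SLC43A3 had no row naming it and was not analysed here.

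Genes of the amino acid response, which the transcription factor ATF4 switches on when amino acids run short, are known to include SLC7A5, SLC3A2 and SLC7A11. Of 18 tested genes limma called 0 between sites and 0 between rounds. At an unadjusted p under 0.05 limma gave 6 and 1, where 378 and 2178 of 14547 genes were. Both ovary arrays were above both stomach arrays for 12 and below for 1, where 13.4% and 11.2% of all tested genes were. The list was drawn up with earlier results of these data known, and each site is 1 lineage. These counts therefore describe the list and test nothing. The median ovary minus stomach difference was 0.26, against 0.0016 over all tested genes, and the median round difference was 0.022. ATF4 itself stood at 10.63 in round 2 and 10.74 in round 1 of the ovary lines, against 10.40 in round 2 and 10.50 in round 1 of the stomach lines. ASNS, asparagine synthetase, stood at 10.86 in round 2 and 11.15 in round 1 of the ovary lines, against 10.68 in round 2 and 10.78 in round 1 of the stomach lines. For ASNS, as for both exchanger subunits, the round 1 ovary array was the highest. It was also the highest for ATF4, CEBPB, DDIT4, MTHFD2, PHGDH, PSAT1, PSPH, SLC7A11 and TRIB3. For SESN2, DDIT3, CHAC1, ATF3, STC2 and VLDLR the round 2 ovary array was the highest instead. TRIB3, a pseudokinase, and SLC7A11 had the largest mean site differences of the list, 0.51 ± 0.15 and 0.48 ± 0.096 (SE). SHMT2, a mitochondrial enzyme of serine metabolism, was the member with both ovary arrays below the stomach arrays (-0.21 ± 0.11).

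**Figure D4:**
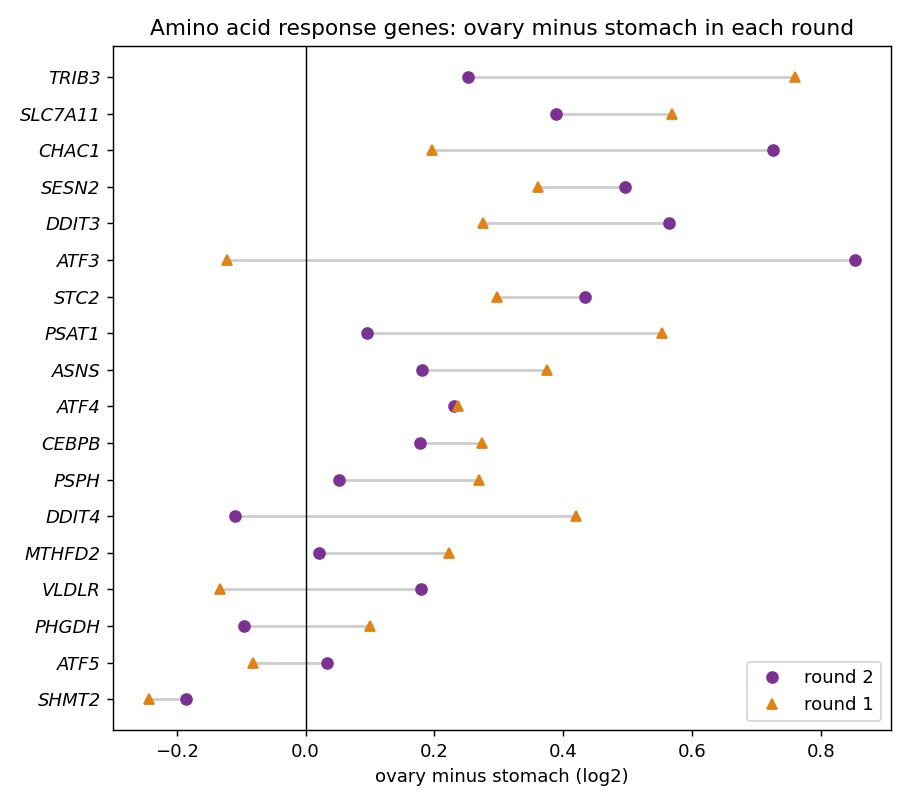
Ovary minus stomach difference (log2, x axis) of the 18 amino acid response genes (y axis, sorted by their mean) in round 2 (circles) and round 1 (triangles). SHMT2 lies left of 0 in both rounds, ATF3, DDIT4, VLDLR, PHGDH and ATF5 change side between rounds, and the other 12 genes lie right of 0 in both.

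MYC, an amplified gene of this line whose protein binds the E-box letters shown above for SLC7A5 and SLC43A1, stood at 12.35 in round 2 and 12.41 in round 1 of the ovary lines, against 11.96 in round 2 and 12.36 in round 1 of the stomach lines. The round 2 stomach array was the lowest and the round 1 ovary array the highest. SLC43A1, SLC16A7 and SLC1A5 had the same order of the 4 arrays. SLC7A5 did not, nor did BSG, which also had a window with CACGTG, nor SLC3A2, SLC43A2 and SLC16A4. The windows of SLC16A7 held no CACGTG, and the MYC values of 12.36 and 12.35 were close to a tie. A link between MYC and these genes was not tested.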

How the data were processed

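Biotin-labelled RNA of cultured cells was read on Affymetrix arrays, per the labels. The authors deposited log2 values per probe set, with Affymetrix Expression Console listed among the tools of the submitters' processing notes; the handling of background and normalization and the genome build are not stated in any source used here. That the scale is log2 follows from the range of 2.25 to 14.2. A shift of every transcript at once cannot be seen if the arrays had been equalised.

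Of 33297 rows, 19460 carry 1 gene symbol in GEO's platform annotation, and each symbol was brought up to date by its gene ID from a RefSeq table of GRCh38.p14 (19429 rows found). Rows with several symbols (1754) or none (12083) were not used. The highest-mean probe set was kept per gene, and a gene was tested if its mean exceeded the 30th percentile over rows, which removed 3870 genes. Members and gene lists were chosen with earlier results of these data known. Samples were grouped by site, and the replicate number is the round. limma 3.58.1 in R 4.3.3 (lmFit, eBayes, two-sided, Benjamini-Hochberg over all tested genes, threshold 0.05) was run on all 4 arrays for ovary minus stomach, for round 2 minus round 1 and for their interaction, with 2 residual degrees of freedom each, the remaining effects being left in the residual. An exact permutation test of 2 against 2 arrays cannot go below p = 0.333 and was not used. Deviations from the site means correlated at 0.411 over genes between the round 2 arrays. With 2 arrays per site the round 1 deviations mirror these, so the value restates how alike the round differences of the lineages were. The labels give the round as a shared implantation stage, so fits with a replicate block were run as well. On simulated data for ovary minus stomach (14547 genes, 200 changed, 10 runs), limma recovered 22.4% of genes changed 2-fold and 93.7% of those changed 4-fold, with independent noise between genes.

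All measured members were named, with companion genes fixed by role, up to 2 genes per list picked for the size of their difference, and the 3 nearest profiles. The alternatives covered the signal minimum (none, or the 50th percentile), normalization (quantile, or median centring), the mean or the lowest-mean probe set of a gene, a trended and robust prior, the replicate block and leaving out each array. Promoter windows came from a RefSeq table (GRCh38.p14), and windows were found for all 8 measured members. Figures were drawn with matplotlib 3.10.9.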

Additional observations from a re-analysis of the deposited data

How the results depend on the processing

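The number of arrays limits every comparison, since each site and each round has 2. The counts of genes called stayed at 0 for ovary minus stomach, round 2 minus round 1 and the interaction under every alternative run, with smallest adjusted p-values of 0.122, 0.0863 and 0.99. With the replicate block, limma again called 0 genes between sites and 0 between rounds, and the lowest adjusted p of a member between sites was 0.77; the block changed no call. The count of members at least 1.5-fold apart stayed at 3 between rounds and 0 between sites under other normalizations and probe set choices. Over the 8 alternatives run for it (normalization, probe set choice and leaving out each array), the round 2 minus round 1 difference ran from -1.30 to -1.02 for SLC16A7, from -1.13 to -0.85 for SLC43A1 and from 0.83 to 1.00 for SLC16A4. Leaving out an array leaves the sites with unequal rounds and the rounds with unequal sites, which turned some small differences. Over the 4 such fits, ovary minus stomach ran from -0.63 to 0.29 for SLC16A4, from -0.46 to 0.80 for SLC16A7, from -0.23 to 0.76 for SLC43A1, from -0.037 to 0.28 for SLC43A2 and from -0.015 to 0.13 for SLC1A5, and round 2 minus round 1 from -0.55 to 0.070 for SLC7A5 and from -0.38 to 0.11 for SLC3A2. The signs turned without the round 1 ovary array for SLC16A4, SLC16A7, SLC43A1 and SLC1A5 between sites and for SLC7A5 and SLC3A2 between rounds, and without the round 2 stomach array for SLC16A4, SLC16A7, SLC43A1 and SLC43A2 between sites. No other member difference changed sign under the alternatives run.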

Other observations

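Genes that sense leucine and pass it to mTORC1 were measured for 19 of 20 members of a fixed list and tested for 17. limma called 0 of them in either comparison (1 between sites and 6 between rounds at an unadjusted p under 0.05, where 378 and 2178 of 14547 genes were), and their median difference was 0.050 for ovary minus stomach and -0.028 for round 2 minus round 1. SESN2, a leucine-binding sestrin that is also a target of the amino acid response, stood at 9.58 in round 2 and 9.34 in round 1 of the ovary lines, against 9.08 in round 2 and 8.98 in round 1 of the stomach lines. SESN1, a related sestrin and p53 target picked for the size of its difference, stood at 7.77 in ovary and 7.34 in stomach lines of round 2, against 6.78 in ovary and 7.00 in stomach lines of round 1. The ovary lines of SESN2 were above the stomach lines in each round, and SESN1 was higher in round 2 in each lineage.

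Of 12 genes of branched-chain amino acid catabolism 11 were tested and limma called 0. At an unadjusted p under 0.05 limma also gave 0, where 378 of 14547 genes were between sites and 2178 between rounds. The medians of the 11 genes were 0.010 for ovary minus stomach and -0.026 for round 2 minus round 1. BCAT1, the cytosolic transaminase that starts leucine breakdown, was under the signal minimum, at 5.02 in round 2 and 4.93 in round 1 of the ovary lines and 4.88 in round 2 and 4.93 in round 1 of the stomach lines. PPM1K, the phosphatase that activates the branched-chain ketoacid dehydrogenase, was picked for its size and stood at 6.29 in round 2 and 6.42 in round 1 of the ovary lines, against 6.49 in round 2 and 6.95 in round 1 of the stomach lines.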
